A study of Mus musculus with 18 samples.

Results

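The eosinophil-type ribonucleases and their nearest secreted relatives were followed in microglia and macrophages sorted from contused mouse spinal cords. The members were chosen by gene symbol: Rnase2a, Rnase2b, Ear1, Ear2, Ear6, Ear10, Rnase4 and Rnase6, which are 8 of the 53465 genes in the count table. The list was drawn up with earlier results of these data known, so the levels and fold changes of the members describe the data and are no independent evidence that the family responds. The mice were adult C57BL/6J females, 8 to 10 weeks old, and all of them received a contusion injury (SCI) and, 48 h later, a single injection into the cord. The injection held PBS (mice 1, 2 and 3), 100 ng of rIL-13 (mice 5, 6 and 7) or 100 ng of rIL-4 (mice 8, 9 and 10). Cells were sorted 24 h after the injection as CD11b+ F4/80+ events with low CD45 (microglia) or high CD45 (macrophages), so each mouse gave 1 library of each cell type and the 18 libraries formed 6 groups of 3. There was no uninjured group, and the vehicle groups were injured and injected too. Levels are given as CPM, counts scaled to the TMM-adjusted library size, and adjusted p-values come from edgeR over all genes tested in a fit, with a gene called below 0.05.

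Ribonucleases of the RNase A superfamily are small secreted enzymes that cleave RNA. The eosinophil-type branch was named after the eosinophil-derived neurotoxin and the eosinophil cationic protein of human eosinophil granules, which act on RNA viruses and, at high concentration, on neurons and other cells. Rodents carry an expanded set of copies, the Ear genes, and members of this set are known in activated macrophages as well as in eosinophils. IL-4 and IL-13 signal through the shared IL-4 receptor alpha chain and the transcription factor STAT6, which drives the type 2 programme of macrophages. Rnase4 and Rnase6 lie in the same superfamily but outside the eosinophil-type branch.

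The total count per library ran from 35961305 to 45849829 in macrophages and from 37151793 to 44431581 in microglia. Mitochondrial genes took 0.532 to 1.41% of the macrophage counts, 2.18 to 3.01% in PBS microglia, 3.28 to 3.53% in rIL-13 microglia and 6.35 to 12.2% in rIL-4 microglia. Of 10 microglia identity markers, 9 were called higher in microglia than in macrophages in the PBS mice and all 10 in the rIL-4 mice and in the rIL-13 mice. With rIL-4 against PBS, 4 of these 10 were called lower in microglia and 10 in macrophages. The microglia libraries also held RNA of fibroblast and pericyte markers, whose summed level was 2622 to 3747 CPM with PBS, 1326 to 8189 with rIL-13 and 257 to 1621 with rIL-4, against 2.95 to 25.6 CPM in macrophages. The PBS and rIL-4 ranges of microglia did not overlap, and 1 of these 10 markers was called lower with rIL-4 there and 4 of 8 tested in macrophages. A sort for CD11b+ F4/80+ cells should leave out such cells, and their part in the members' levels was not tested. In bulk libraries, fewer cells of a type and less RNA per cell cannot be told apart.

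All members lie on chromosome 14 of GRCm38 as protein-coding genes with the whole coding sequence in 1 exon. Ear1 (chr14:43818765-43875517, minus strand), Ear10 (chr14:43922720-43923559, minus strand) and Ear2 (chr14:44102654-44103534, plus strand) form a proximal group. A distal group holds Rnase4 (chr14:51091077-51106151), Rnase6 (chr14:51123908-51132187) and Rnase2b (chr14:51162260-51163018) on the plus strand, Rnase2a (chr14:51255262-51256112) on the minus strand and Ear6 (chr14:51853699-51854643) on the plus strand. How alike the copies are bears on the counts of those that share runs of sequence, because reads of 76 bases that fit more than 1 copy had to be divided among the copies when counts were estimated. The coding sequence of Ear2 was 97.0% identical to that of Ear10, 95.1% to that of Ear1 and 87.7% to that of Ear6. Rnase2a was 83.8% identical to Rnase2b and 79.8% to Ear2, and its identity with Rnase4 and Rnase6 was 50.6% and 56.0%. The stretch of coding sequence below (GENCODE vM21 transcripts, bases counted from the start codon) shows how little separates the proximal copies, with bases that differ from Ear2 in capitals.
Ear2, bases 10 to 99: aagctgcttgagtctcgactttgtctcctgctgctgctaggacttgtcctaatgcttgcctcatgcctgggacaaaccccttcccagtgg
Ear1, bases 10 to 99: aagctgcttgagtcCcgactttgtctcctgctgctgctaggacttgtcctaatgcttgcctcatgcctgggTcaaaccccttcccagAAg
Ear10, bases 10 to 99: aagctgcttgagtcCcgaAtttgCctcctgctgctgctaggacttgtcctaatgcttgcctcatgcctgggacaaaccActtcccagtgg

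Rnase2a is far easier to tell from its relatives. The next stretch was taken where Rnase2a differs most from both Rnase2b and Ear2, and capitals mark bases that differ from Rnase2a, which were 21 of 90 in Rnase2b and 30 of 90 in Ear2.
Rnase2a, bases 247 to 336: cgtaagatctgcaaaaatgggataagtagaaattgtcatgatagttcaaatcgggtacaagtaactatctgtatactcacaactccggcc
Rnase2b, bases 247 to 336: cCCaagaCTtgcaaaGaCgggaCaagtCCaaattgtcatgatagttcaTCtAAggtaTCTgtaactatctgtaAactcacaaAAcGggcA
Ear2, bases 247 to 336: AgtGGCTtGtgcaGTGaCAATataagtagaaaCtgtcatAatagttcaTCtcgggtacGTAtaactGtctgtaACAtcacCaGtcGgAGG

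Every run of 76 bases in the annotated transcripts of Rnase2a, Rnase2b, Ear6 and Rnase6 occurred in no other gene's transcript. The runs of Ear2 were unique for 77.2% and those of Ear10 and Ear1 for 67.8% and 61.3%. The other Ear2 runs also occurred in Ear1, Ear10 or the pseudogenes Ear-ps2 and Ear-ps9. Rnase4 had 95.5% unique runs and shared the rest with Ang, the angiogenin gene, whose annotated span lies within that of Rnase4 (chr14:51091150-51102009).

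Rnase2a, which with Rnase2b carries the name of the human gene for eosinophil-derived neurotoxin, was close to absent without cytokine and became abundant with either one, most with rIL-4. In microglia the counts were 10, 43 and 19 in the 3 PBS mice, 1288, 716 and 830 in the rIL-13 mice and 3135, 4081 and 3097 in the rIL-4 mice. These correspond to mean levels of 0.536 ± 0.352, 20.5 ± 8.40 and 80.2 ± 3.47 CPM (SD, n = 3). The 3 groups did not overlap, and the rIL-4 libraries lay within a narrow range of 78.1 to 84.2 CPM. Of all genes tested in microglia, 6.81% lay higher in every rIL-13 library than in every PBS library, and 10.3% did so with rIL-4. Relative to PBS the mean level was 38.2-fold higher with rIL-13 and 149.5-fold higher with rIL-4. The fitted log2 fold changes were 5.24 (SE 0.49, edgeR adjusted p = 0.00229) and 7.23 (SE 0.53, edgeR adjusted p = 0.000346). Both rest on few PBS counts: without PBS microglia of mouse 2, which held 43 of the 72 counts, they were 5.89 and 7.88, and over all left-out libraries they ran from 4.85 to 5.89 and from 6.89 to 7.88.

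In macrophages Rnase2a rose with both cytokines too. The counts were 5, 8 and 6 in PBS macrophages, 1943, 861 and 1776 with rIL-13 and 8596, 7466 and 8997 with rIL-4. The mean levels were 0.184 ± 0.0535, 46.7 ± 20.3 and 209.9 ± 18.4 CPM (SD, n = 3), and again no library of one group reached the range of another. In macrophages 12.1% of genes tested were separated from PBS in this way with rIL-13 and 17.1% with rIL-4. The mean was 254-fold higher with rIL-13 and 1140.4-fold higher with rIL-4, from a PBS level that rests on 19 counts over 3 libraries. The log2 fold changes were 7.98 (SE 0.43, edgeR adjusted p = 8.03e-06) and 10.14 (SE 0.45, edgeR adjusted p = 1.95e-06). Both comparisons use the same PBS libraries, so they are not independent of each other.

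**Figure D1:**
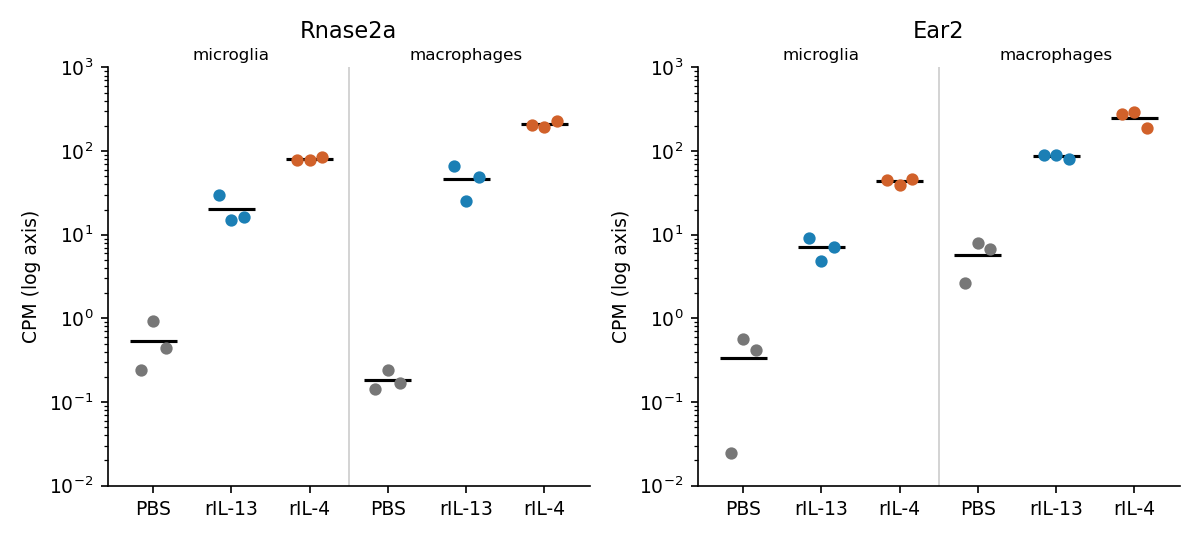
Level of Rnase2a (left) and Ear2 (right) in each of the 18 libraries, in CPM on a log axis, by treatment and cell type. Points are single libraries and bars are group means of 3; for both genes PBS libraries lie lowest and rIL-4 libraries highest in each cell type, and PBS macrophages hold more Ear2 (mean 5.77 CPM) than Rnase2a (mean 0.184 CPM).

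Ear2, an eosinophil-associated copy also known from alveolar macrophages, followed the same order of treatments but started from a higher level in macrophages. The macrophage counts were 94, 259 and 243 with PBS, 2661, 3095 and 2918 with rIL-13 and 11605, 11111 and 7347 with rIL-4. The mean levels were 5.77 ± 2.76, 87.2 ± 5.23 and 251 ± 55.2 CPM (SD, n = 3), and the groups did not overlap. Thus Ear2 was 15.1-fold higher with rIL-13 (log2 3.93, SE 0.35, edgeR adjusted p = 0.000279) and 43.6-fold higher with rIL-4 (log2 5.45, SE 0.38, edgeR adjusted p = 2.61e-05).

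In microglia the Ear2 counts were 1, 26 and 18 with PBS, 390, 234 and 365 with rIL-13 and 1806, 2063 and 1718 with rIL-4. The means were 0.333 ± 0.277, 7.06 ± 2.11 and 43.8 ± 3.80 CPM (SD, n = 3), with no overlap between groups. The level was 131-fold higher with rIL-4 (log2 7.03, SE 0.76, edgeR adjusted p = 0.00225). With rIL-13 it was 21.2-fold higher (log2 4.39, SE 0.69, edgeR adjusted p = 0.0339). The rIL-13 call for Ear2 was fragile: it held in 6 of 14 alternative fits, with adjusted p-values from 1.3e-10 to 0.205. It was lost without PBS microglia of mouse 2 or 3, rIL-13 microglia of mouse 5 or 7, or any of the 3 rIL-4 microglia libraries, and in a fit of the 6 libraries compared. Over all left-out libraries its fold change ran from 3.85 to 4.97 on the log2 scale and that of rIL-4 from 6.50 to 7.62, each highest without PBS microglia of mouse 2.

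Over all 8 members, Rnase2a and Ear2 were therefore the 2 called higher in each comparison with PBS. For comparison, 1.33% of the genes tested were called higher with rIL-4 in microglia and 0.283% with rIL-13, against 6.77% and 2.53% in macrophages. In each of these fits 4 members were tested (Rnase2a, Ear2, Rnase4 and Rnase6), and the other 4 were too low to enter.

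**Figure D2:**
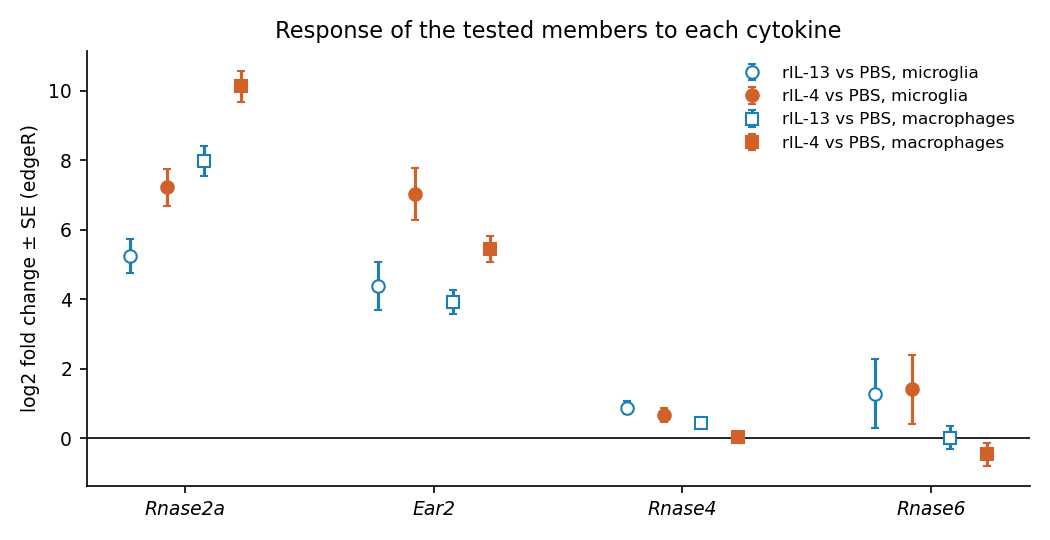
Log2 fold change with its standard error from edgeR for the 4 members that could be tested, for each cytokine against PBS in each cell type. Rnase2a and Ear2 lie between 3.93 and 10.14, and Rnase4 and Rnase6 between -0.46 and 1.40.

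The cytokines were next compared with each other at the same dose. In macrophages the Rnase2a level of the rIL-4 mice was 4.50-fold that of the rIL-13 mice (log2 2.16, SE 0.29, edgeR adjusted p = 0.0201), where 0.0294% of genes tested were called higher with rIL-4 and 7.65% had groups that did not overlap in that direction. This call held in 8 of 14 alternative fits, with adjusted p-values up to 0.105, and it was lost without PBS macrophages of mouse 3, rIL-13 macrophages of mouse 7 or any of the 3 rIL-4 macrophage libraries, and in a fit of the 6 libraries compared (edgeR adjusted p = 0.0862). Ear2 was 2.88-fold higher with rIL-4 in macrophages (log2 1.52, SE 0.32), with an edgeR adjusted p of 0.0931, and DESeq2 called it (adjusted p = 0.00052). In microglia the corresponding values were 3.92-fold for Rnase2a (log2 1.98, SE 0.41, edgeR adjusted p = 0.146) and 6.20-fold for Ear2 (log2 2.65, SE 0.61, edgeR adjusted p = 0.204). None of these 3 passed the test, although the rIL-4 and rIL-13 groups of both genes did not overlap in either cell type. In the microglia comparison edgeR called no gene higher with rIL-4 (0% of those tested), and groups that did not overlap in that direction made up 5.30%. The unadjusted p-values of Rnase2a and Ear2 there were 0.000755 and 0.00163, and DESeq2 called both (adjusted p = 0.000129 and 0.000244).

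The members were also compared between the cell types within each treatment. Ear2 was lower in microglia than in macrophages of every treatment, by 17.3-fold with PBS (log2 -4.07, SE 0.52, edgeR adjusted p = 2.5e-05), 12.3-fold with rIL-13 (log2 -3.63, SE 0.45, edgeR adjusted p = 1.71e-05) and 5.75-fold with rIL-4 (log2 -2.52, SE 0.43, edgeR adjusted p = 0.000316). The PBS value rests on 1, 26 and 18 counts in microglia, and it ran from -4.68, without PBS microglia of mouse 2, to -3.56, without those of mouse 1. Rnase2a was lower in microglia by 2.62-fold with rIL-4 (log2 -1.39, SE 0.35, edgeR adjusted p = 0.00741) and by 2.28-fold with rIL-13 (log2 -1.19, SE 0.35, edgeR adjusted p = 0.0182). The rIL-13 groups of Rnase2a overlapped, and that call was lost without rIL-13 macrophages of mouse 5 or 7 or rIL-13 microglia of mouse 6 or 7, with adjusted p-values up to 0.105, and in a fit of the 6 libraries compared (edgeR adjusted p = 0.0749). With PBS the order of Rnase2a was the opposite, with 0.536 CPM in microglia and 0.184 CPM in macrophages (log2 1.55, SE 0.55, edgeR adjusted p = 0.04999). This last call held in 7 of 23 alternative fits, with adjusted p-values from 0.00584 to 0.297, and not in a fit of the 6 libraries compared (edgeR adjusted p = 0.164). Of the 18 libraries, its call survived the omission only of PBS microglia of mouse 1, rIL-13 macrophages of mouse 5 or 6 and rIL-13 microglia of mouse 5, and the value was 0.89 without PBS microglia of mouse 2, which held 43 of the 72 counts. In these 3 comparisons 2, 3 and 3 of the 8 members were called with PBS, rIL-4 and rIL-13, and 25.6%, 27.6% and 29.4% of genes tested were called in either direction. Groups that did not overlap in either direction made up 50.6%, 37.2% and 41.0% of genes tested.

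An interaction term asked whether the response itself depended on the cell type. For Rnase2a the rIL-4 response was 2.94 log2 units smaller in microglia than in macrophages (SE 0.65, edgeR adjusted p = 0.0415), the 1 member called in a comparison where 0.992% of genes tested were called. With rIL-13 it was 2.74 log2 units smaller (interaction -2.74, SE 0.65, edgeR adjusted p = 0.295), where 0.0242% were called, and leaving out 1 library at a time gave -3.13 to -2.08. For Ear2 the interaction had the opposite sign, 1.55 with rIL-4 (SE 0.65, edgeR adjusted p = 0.335) and 0.45 with rIL-13 (SE 0.65, edgeR adjusted p = 0.9999), and neither passed. With 1 library left out the Ear2 values ran from 1.03 to 2.15 and from -0.07 to 1.05. For rIL-4 against rIL-13 it was -0.20 for Rnase2a (SE 0.49) and 1.10 for Ear2 (SE 0.58), with no member called and 0.139% of genes tested. The Rnase2a call with rIL-4 was kept in 10 of 22 alternative fits (adjusted p 0.000576 to 0.146). It was lost when any PBS macrophage library, any rIL-4 library of either cell type, PBS microglia of mouse 2 or 3, or rIL-13 macrophages of mouse 7 was left out, with values of -3.28 to -2.28.

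The 2 abundant copies thus stood in different proportions in the cell types. Among cytokine-treated mice the ratio of Rnase2a to Ear2 counts was 3.30, 3.06 and 2.27 in rIL-13 microglia and 1.74, 1.98 and 1.80 in rIL-4 microglia. In the macrophages of the same mice it was 0.730, 0.278 and 0.609 with rIL-13 and 0.741, 0.672 and 1.22 with rIL-4. The ratio was higher in microglia in 6 of 6 mice, by 1.81 ± 0.98 on the log2 scale (SD, n = 6 mice). In PBS macrophages it was 0.0532, 0.0309 and 0.0247. PBS microglia of mice 2 and 3 gave 1.65 and 1.06 from 18 to 43 counts, and mouse 1 held a single Ear2 count. The ratio was computed after the values were seen and is given as a description.

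**Figure D3:**
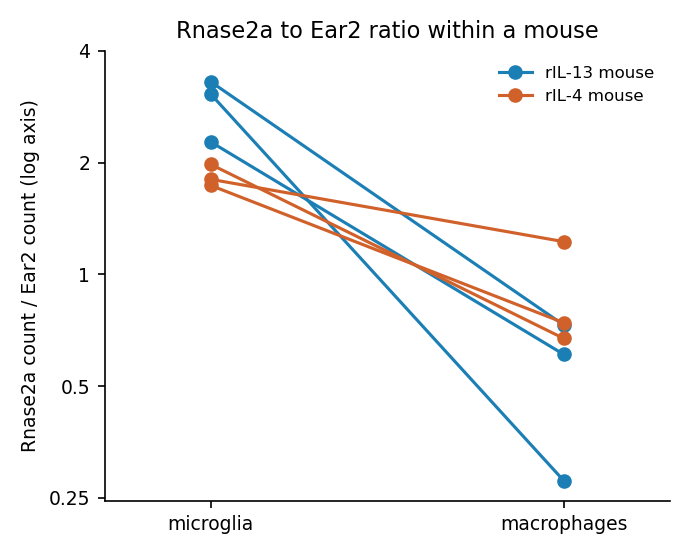
Ratio of the Rnase2a count to the Ear2 count (log axis) in the microglia and the macrophages of each of the 6 cytokine-treated mice, with a line for each mouse. All 6 lines fall from microglia (1.74 to 3.30) to macrophages (0.278 to 1.22).

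The level in microglia was also set against the level in macrophages of the same mouse, beside macrophage marker genes. With rIL-4, microglia held 36.5 to 40.1% of the macrophage level of Rnase2a and 13.6 to 24.8% of that of Ear2. Over the 10 monocyte-derived macrophage markers the same percentage ran from 5.87% (Ccr2) to 58.0% (Vcan) in these mice, with 6.53 to 12.8% for Ly6c2 and 13.6 to 22.1% for Chil3. With rIL-13 the values were 32.9 to 59.5% for Rnase2a and 5.41 to 10.2% for Ear2, and the markers ran from 1.02% (Plac8) to 86.7% (Vcan), with 3.16 to 7.79% for Ly6c2 and 8.11 to 9.08% for Chil3. In the PBS mice Ear2 stood at 0.920 to 7.10% and the markers at 2.59 to 76.3%, but Rnase2a stood at 173 to 380%, from 5 to 43 counts a library. With each cytokine both copies thus lay within the span of the whole marker list, Ear2 overlapped Ly6c2 or Chil3, and Rnase2a lay above both. The same mice had the higher mitochondrial share given above in their rIL-4 microglia. What part macrophage RNA or RNA quality in the microglia libraries had in the Rnase2a and Ear2 levels was not tested.

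The other 4 eosinophil-type copies gave almost no counts. Over all 18 libraries Ear2 had 45954 counts and Rnase2a 42877, together nearly all of the 6 copies, against 50 for Rnase2b, 23 for Ear6, 22 for Ear1 and 0 for Ear10. Ear1 was found in 3 macrophage libraries, with 4 and 2 counts in rIL-13 mice 6 and 7 and 16 counts in rIL-4 mouse 8. Ear6 had 1 and 2 counts in PBS mice 1 and 2, 5 and 3 counts in rIL-13 mice 5 and 6 and 12 counts in rIL-4 mouse 8, all in macrophages. Rnase2b was spread over all treatments, with 0, 3 and 10 counts in PBS macrophages, 5, 15 and 3 with rIL-13 and 5, 5 and 4 with rIL-4. None of these 4 copies had a count in any microglia library. A count of 0 allows up to 3 counts in a library, which covers counting error only.

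Rnase2b thus stayed within 0 to 15 counts in every macrophage library while its nearest relative Rnase2a rose from 19 counts to 25059 over the 3 mice of a group. In the rIL-4 macrophages Ear1 had 16 counts beside 30063 for Ear2, or 0.0532%, although 7.84% of the Ear1 runs of 76 bases also occur in Ear2. The 6 eosinophil-type rows were also summed. Ear2 and Rnase2a hold 51.7% and 48.2% of these counts, so the sum cannot show how the result depends on the division of reads between copies. The pseudogenes Ear-ps2 and Ear-ps9, in which 5.59% and 2.33% of the Ear2 runs also occur, are not part of it. The sum rose from 0.869 ± 0.610 to 27.5 ± 10.3 CPM with rIL-13 and 124 ± 6.69 CPM with rIL-4 in microglia (SD, n = 3), or 31.7-fold and 143-fold. In macrophages it rose from 6.11 ± 2.89 to 134 ± 19.7 and 462 ± 37.3 CPM (SD, n = 3), or 22.0-fold and 75.6-fold. The sums were given no test.

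The upstream sequence of the scarce and the abundant copies was compared next. In the 250 bases before the RefSeq start (promoter windows, GRCm38.p6, found for all 8 members), Ear1 and Ear2 were 97.6% identical, Ear10 and Ear2 90.6% and Rnase2a and Rnase2b 78.4%. Rnase2a and Ear2, the 2 copies that rose, were 60.5% identical. The RefSeq start of Ear1 lies far inside the gene span given above, that of Ear6 just inside its span and that of Ear10 just outside, so for these genes the windows do not sit at the end of the printed span. The last 100 bases before the start are shown for these genes, 5′ to 3′ on the gene's own strand, with capitals where the copy differs from Ear2.
Ear2, chr14:44102554-44102653, plus strand: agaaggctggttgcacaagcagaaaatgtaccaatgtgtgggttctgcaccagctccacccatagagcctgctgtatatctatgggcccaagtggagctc
Ear1, chr14:43819640-43819739, minus strand: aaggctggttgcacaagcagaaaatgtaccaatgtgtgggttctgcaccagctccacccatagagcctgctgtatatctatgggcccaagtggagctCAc
Ear10, chr14:43923597-43923696, minus strand: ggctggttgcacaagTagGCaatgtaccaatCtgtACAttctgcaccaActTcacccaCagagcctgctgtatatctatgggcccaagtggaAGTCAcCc

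In the second set capitals mark where Rnase2b differs from Rnase2a.
Rnase2a, chr14:51256113-51256212, minus strand: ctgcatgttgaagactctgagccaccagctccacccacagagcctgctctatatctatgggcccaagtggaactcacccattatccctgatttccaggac
Rnase2b, chr14:51162160-51162259, plus strand: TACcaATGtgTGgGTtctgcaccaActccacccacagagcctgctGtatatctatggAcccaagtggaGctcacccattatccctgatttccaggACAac

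Ear1 matched Ear2 in these 100 bases but for a shift of 2 bases, while the counts of the genes differed by the margin given above. All 6 eosinophil-type copies carried the letters TATATCTAT, which start between 26 and 54 bases before the RefSeq start. This run was picked from the printed sequences, and 0.125% of 32851 promoter windows of the same length hold it on either strand. The copies are related by duplication, so they are not separate occurrences. The spaced palindrome TTCNNNNGAA, known for STAT6, was searched on both strands and was in no window of the 8 members, against 5.85% of all windows. The form with 1 base less between the arms, TTCNNNGAA, was also in none, against 7.02%. No site can fit both forms from the same first base. This says only that these letters are not in the 250 bases before the start.

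Rnase4 was by far the most abundant member in vehicle-treated cells. It encodes a secreted ribonuclease with a preference for uridine and is transcribed from promoters shared with Ang. Per kilobase of transcript it stood at 265 ± 32.8 CPM in PBS macrophages and 351 ± 40.7 CPM in PBS microglia (SD, n = 3). On the same scale Ear2 stood at 8.03 ± 3.83 and 0.463 ± 0.385, Rnase6 at 3.11 ± 0.753 and 1.20 ± 0.211, and Rnase2a at 0.267 ± 0.0775 and 0.777 ± 0.510 CPM per kilobase. With rIL-4 the macrophage levels of Ear2 (349.6 ± 76.8), Rnase2a (304 ± 26.7) and Rnase4 (270.2 ± 24.4 CPM per kilobase) came to lie within 1 range. In rIL-4 microglia Rnase4, at 548.9 ± 129.9 CPM per kilobase, stayed above Rnase2a (116 ± 5.02) and Ear2 (60.8 ± 5.28), and no library of these genes overlapped.

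Before any scaling by length, Rnase4 was 528, 474 and 597 CPM in PBS microglia, 1041, 816 and 1075 CPM with rIL-13 and 1059, 747 and 694 CPM with rIL-4. All cytokine-treated microglia libraries lay above all PBS libraries, by 1.83-fold with rIL-13 (log2 0.88, SE 0.20, edgeR adjusted p = 0.170) and 1.56-fold with rIL-4 (log2 0.67, SE 0.20, edgeR adjusted p = 0.134). Neither passed the test in the microglia fit, but both were called by DESeq2 (adjusted p = 0.00081 and 0.0125) and by edgeR with all 18 libraries in 1 model (adjusted p = 0.0285 and 0.0499).

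In macrophages Rnase4 was 352, 405 and 452 CPM with PBS, 650.1, 452 and 511 CPM with rIL-13 and 425, 368 and 437 CPM with rIL-4. The log2 fold changes were 0.42 with rIL-13 (SE 0.17, edgeR adjusted p = 0.206) and 0.03 with rIL-4 (SE 0.17, edgeR adjusted p = 0.942), and the rIL-4 and PBS groups overlapped. Rnase4 was higher in microglia than in macrophages with rIL-4 (log2 1.02, SE 0.18, edgeR adjusted p = 0.000529) and with rIL-13 (log2 0.86, SE 0.18, edgeR adjusted p = 0.00208). With PBS the difference was 0.40 (SE 0.18, edgeR adjusted p = 0.121). Both calls held in all 24 alternative fits.

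Ang, the neighbour that shares 4.55% of the Rnase4 runs of 76 bases, was also followed. Its level in macrophages was 47.7 ± 9.28 CPM with PBS, 41.4 ± 8.16 with rIL-13 and 26.1 ± 5.05 with rIL-4 (SD, n = 3), and it fell by 0.88 on the log2 scale with rIL-4 (SE 0.21, edgeR adjusted p = 0.0188). In microglia its change was -0.02 with rIL-4 (SE 0.24, edgeR adjusted p = 0.989) and 0.34 with rIL-13 (SE 0.24, edgeR adjusted p = 0.942). Between the cell types Ang lay higher in microglia with rIL-4, as Rnase4 did (log2 0.90, SE 0.24, edgeR adjusted p = 0.01002), and its differences with rIL-13 (log2 0.61, SE 0.24, edgeR adjusted p = 0.0655) and in the rIL-4 interaction (log2 0.83, SE 0.34, edgeR adjusted p = 0.308) had the sign of those of Rnase4 without passing.

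**Figure D4:**
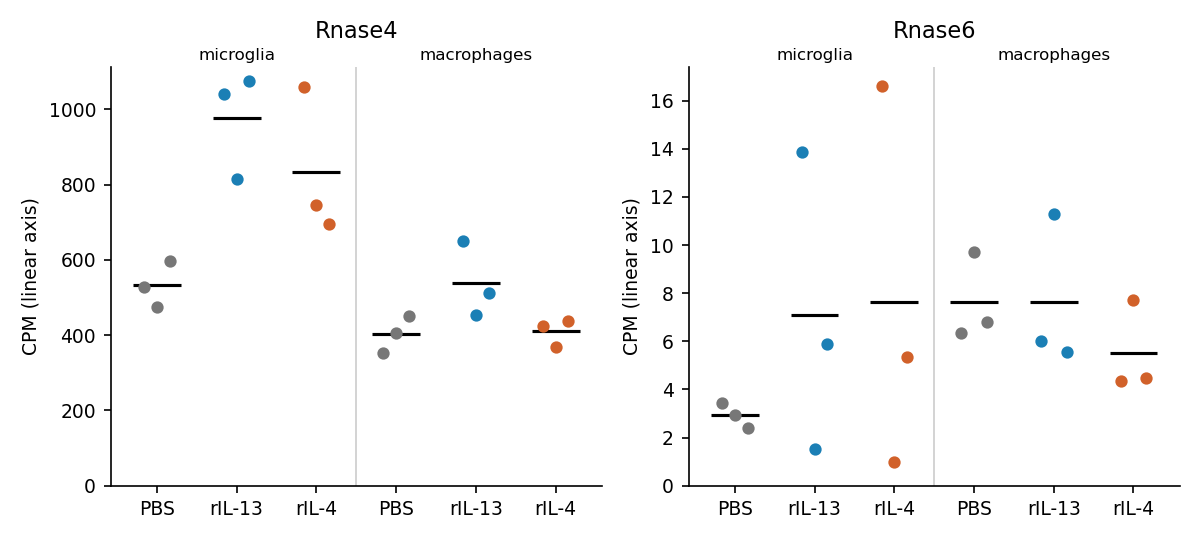
Level of Rnase4 (left) and Rnase6 (right) in each library, in CPM on linear axes that start at 0, by treatment and cell type, with bars at the means of 3 libraries. Rnase4 is higher in all cytokine-treated microglia than in PBS microglia, and the Rnase6 values of cytokine-treated microglia spread from 0.976 to 16.6 CPM.

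Rnase6, which encodes an antimicrobial ribonuclease of monocytes and macrophages, was called in none of the comparisons. In PBS microglia it was even across mice, at 3.45, 2.93 and 2.41 CPM. With rIL-13 it was 13.9, 1.51 and 5.88 CPM and with rIL-4 16.6, 0.976 and 5.35 CPM, so single libraries lay both above and below the whole PBS range. The fitted changes in microglia were 1.28 (SE 0.99, edgeR adjusted p = 0.970) and 1.40 (SE 0.99, edgeR adjusted p = 0.582), and they were 0.34 without rIL-13 microglia of mouse 5 and 0.12 without rIL-4 microglia of mouse 8, the libraries with the highest levels. In macrophages Rnase6 was 6.33, 9.73 and 6.78 CPM with PBS, 6.03, 11.3 and 5.56 CPM with rIL-13 and 4.35, 7.72 and 4.48 CPM with rIL-4, and the groups overlapped. The rIL-4 change was -0.46 (SE 0.33, edgeR adjusted p = 0.411) and the rIL-13 change 0.01 (SE 0.33, edgeR adjusted p = 0.992). With PBS its microglia lay below its macrophages in all libraries (2.60-fold, log2 -1.38, SE 0.78, edgeR adjusted p = 0.219), and a fit of those 6 libraries alone called it (edgeR adjusted p = 0.00719).

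Because the branch carries the name of eosinophils, markers of that cell were read in the same libraries. Of the granule proteins, Prg3 (a homologue of major basic protein) had 0 counts in all 18 libraries, Epx (eosinophil peroxidase) had 32 counts in PBS microglia of mouse 1 and 0 elsewhere, and Prg2 (major basic protein) had 23 counts in rIL-4 microglia of mouse 10, 1 in rIL-4 macrophages of mouse 9 and 0 elsewhere. Il5ra, the IL-5 receptor alpha chain, had 4 counts in rIL-13 macrophages of mouse 6 and 0 elsewhere. Gata1, a further marker, had 20 counts in that same library, 22 in rIL-13 microglia of mouse 5 and 0 elsewhere. Ccr3, the eotaxin receptor, had 6 to 19 counts in PBS macrophages, 2 to 26 with rIL-13 and 16 to 22 with rIL-4. Siglecf, a lectin of eosinophils and some macrophages, went down in macrophages from 12.6 ± 1.33 to 6.59 ± 1.02 CPM with rIL-13 and to 4.70 ± 0.647 CPM with rIL-4 (SD, n = 3; log2 -0.93 and -1.42, edgeR adjusted p = 0.0312 and 0.00161). In microglia Siglecf ranged from 0 to 12.9 CPM with rIL-13 and from 0.0815 to 16.0 CPM with rIL-4.

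Of the 11 eosinophil markers listed, 6 could be tested in macrophages. None was called higher with either cytokine, and 3 were called lower with rIL-4 (Cd24a, Siglecf and Alox15) and 2 with rIL-13. Cebpe, also listed, stood at 0.509 to 1.10 CPM in PBS macrophages, 0.505 to 1.41 with rIL-13 and 0.999 to 1.83 with rIL-4. In microglia Cebpe was at 0 to 0.0862 CPM with PBS, 0 to 0.566 with rIL-13 and 0.0383 to 0.874 with rIL-4. Cd24a, which many cell types express, made up most of the summed level, which was 647 to 852 CPM in PBS macrophages, 284 to 297 CPM with rIL-13 and 204 to 266 CPM with rIL-4. In microglia 5 markers were tested, none was called with either cytokine against PBS, and the sum was 45.1 to 76.4, 18.4 to 46.2 and 27.9 to 70.1 CPM with PBS, rIL-13 and rIL-4. In the cytokine-treated libraries Epx and Prg3 were at 0 throughout, and Prg2 was at 0 in all but the 2 named above. In one of these, rIL-4 microglia of mouse 10, the 23 Prg2 counts came with 20 Ccr3 counts. The part of eosinophils in the Rnase2a and Ear2 levels was not tested.

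**Figure D5:**
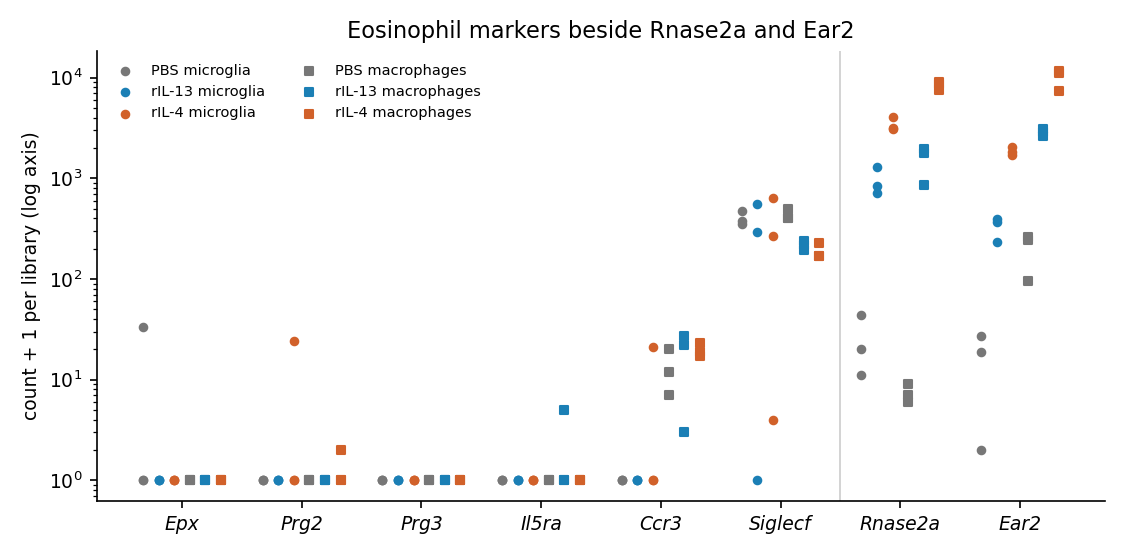
Count plus 1 per library (log axis) of 6 eosinophil markers and, right of the grey line, of Rnase2a and Ear2, with circles for microglia and squares for macrophages. Epx, Prg2, Prg3 and Il5ra lie at 1 (a count of 0) in nearly all libraries, while Rnase2a and Ear2 reach 8997 and 11605 counts with rIL-4.

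Markers of other cell types were read in the same way, although sorting for CD11b+ F4/80+ cells should leave out lymphocytes, oligodendrocytes, astrocytes and most neutrophils. Neutrophil markers summed to 1034 to 1666 CPM in PBS macrophages, 556 to 3215 with rIL-13 and 263 to 920 with rIL-4, and 3 of 12 were called lower with rIL-4. Basophil and mast cell markers summed to at most 3.19 CPM in macrophages and to 22.5 to 69.4 CPM in microglia, with none called against PBS. The summed monocyte-derived macrophage markers, which include Chil3, rose from 5210 to 7326 CPM in PBS macrophages to 90588 to 115931 CPM with rIL-4. Chil3 alone held 84161 to 110392 CPM with rIL-4, and the list's median log2 fold change was -0.42. Of the 10 markers, 2 were called higher (Chil3 and Fn1) and 1 lower (F13a1). In microglia the same sum was 858 to 1277 CPM with PBS, 5521 to 7878 with rIL-13 and 12460 to 22299 with rIL-4. These ranges did not overlap, but Chil3 alone held 4626 to 6817 CPM with rIL-13 and 11483 to 20631 CPM with rIL-4. The list's median log2 fold changes in microglia were -0.13 and 0.35. Of the 10 markers, 1 (Chil3) was called higher with rIL-13 and 2 (Chil3 and Ms4a7) with rIL-4. Dendritic cell markers summed to 11.7 to 20.7 CPM in PBS macrophages and 21.0 to 34.0 with rIL-4, and 1 of 8 (Batf3) was called higher with each cytokine. In microglia they summed to 11.3 to 17.3 CPM with PBS, 10.1 to 18.7 with rIL-13 and 18.9 to 44.1 with rIL-4, so the PBS and rIL-4 ranges did not overlap, and 1 of 6 tested (Ccr7) was called higher with rIL-4. Lymphocyte markers summed to at most 4.47 CPM in any library. Of 8 nonclassical monocyte markers, 3 were called lower with rIL-4 in macrophages and none in microglia. Their sum was 580 to 731 CPM in PBS macrophages and 715 to 850 with rIL-4. In microglia it was 92.5 to 122 CPM with PBS, 84.1 to 157 with rIL-13 and 157 to 225 with rIL-4. The PBS and rIL-4 ranges of microglia did not overlap. Of 10 oligodendrocyte and astrocyte markers, 8 were tested in macrophages and 1 was called lower with each cytokine. Their sum was 133 to 214 CPM in macrophages and 193 to 336 CPM in microglia. Of 9 tested, 6, 5 and 4 were called higher in microglia than in macrophages with PBS, rIL-4 and rIL-13. The part of these cells in the Rnase2a and Ear2 levels was not tested.

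The members were placed beside the programme that IL-4 and IL-13 are known to drive. Of 20 listed type 2 response genes, 17 of 20 tested were called higher and 1 lower (Alox15) with rIL-4 in macrophages, and 15 were called higher and none lower with rIL-13. In microglia 11 and 7 of 18 tested were called higher with rIL-4 and rIL-13, and none lower. The list's median log2 fold change was 3.90 and 3.02 in macrophages and 4.54 and 3.56 in microglia, where the median of all genes tested was between -0.06 and 0.02. Retnla, which encodes the secreted protein RELMα, rose by 14.71 (SE 0.68, edgeR adjusted p = 2.18e-06) and Mrc1, the mannose receptor, by 4.84 (SE 0.25, edgeR adjusted p = 5.26e-06) on the log2 scale in rIL-4 macrophages. The list was chosen with these data known, and its direction is not independent evidence.

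Genes with the most similar pattern were ranked by Pearson correlation of log2 CPM over the 18 libraries, among 16531 genes. For Rnase2a these were Retnla (r = 0.979), Clec7a, the beta-glucan receptor dectin-1 (r = 0.977), and Msx3 (r = 0.964). For Ear2 they were Chil3, the chitinase-like protein Ym1 (r = 0.981), Pdcd1lg2, the checkpoint ligand PD-L2 (r = 0.964), and the chemokine Ccl6 (r = 0.962). Rnase2a and Ear2 themselves correlated at r = 0.824. Rnase4 was most like Slc22a5 (r = 0.932) and Rnase6 most like Ints14 (r = 0.888). The libraries share treatments, cell types and mice, so these values carry no test.

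Genes that break down or sense RNA in lysosomes and endosomes were read beside these enzymes. The list of lysosomal nucleic acid breakdown and RNA sensing holds 16 genes, all tested. In macrophages 7 were called with rIL-4, of which 2 rose and 5 fell, and 4 with rIL-13, of which 1 rose and 3 fell. The list medians were -0.29 and -0.23 beside 0.02 and 0.00 for all genes. Tlr13, a receptor for bacterial ribosomal RNA, fell by 1.39 on the log2 scale with rIL-4 (SE 0.12, edgeR adjusted p = 0.000111), Tlr3, a receptor for double-stranded RNA, by 1.92 (SE 0.25, edgeR adjusted p = 0.000905) and Pld4, a lysosomal exonuclease, by 0.70 (SE 0.13, edgeR adjusted p = 0.00719). Tlr8, an endosomal receptor, rose by 0.88 with rIL-4 (SE 0.13, edgeR adjusted p = 0.00154) and 1.00 with rIL-13 (SE 0.13, edgeR adjusted p = 0.00227). In microglia 2 of the 16 were called with rIL-4, both higher, and none with rIL-13, while the list medians were -0.69 and -0.41 beside -0.06 and 0.00 for all genes. The 2 called were Rnh1, the cytosolic inhibitor that binds and blocks RNase A enzymes (log2 0.81, SE 0.16, edgeR adjusted p = 0.0336), and Acp5, the tartrate-resistant acid phosphatase (log2 3.06, SE 0.62, edgeR adjusted p = 0.0384). In macrophages the rIL-4 change of Rnh1 was -0.07 (SE 0.15, edgeR adjusted p = 0.820). Rnh1 was lower in microglia than in macrophages with PBS (log2 -2.13, SE 0.16, edgeR adjusted p = 1.65e-07) and with rIL-4 (log2 -1.27, SE 0.16, edgeR adjusted p = 1.25e-05).

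Of 23 further RNase A family symbols, 16 were in the table. Only Ang was tested in macrophages, and Ang, Rnase1 and Rnase12 were tested in microglia, where none was called with either cytokine. Rnase1, the pancreatic-type ribonuclease of endothelium, had 0 counts in every macrophage library and 0 to 55 in microglia. Ear14, which lies between Rnase2b and Rnase2a, had 0 counts in every library. The summed level of the 16 was 22.0 to 53.8 CPM in macrophages and 39.1 to 84.0 CPM in microglia.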

How the data were processed

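Microglia and macrophages from 9 mice gave 18 SMART-seq2 libraries, which mark no strand and carry no molecular identifiers. Per the study's methods, the authors mapped paired reads to GRCm38 with STAR 2.5.3a and estimated counts per gene with RSEM 1.3.0, which divides reads that fit several genes. Their annotation release is not given in the sources used here. The deposited expected counts were already whole numbers and were used as they stood.

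Counts were tested with edgeR 4.0.16 (TMM, filterByExpr, quasi-likelihood test, Benjamini-Hochberg adjustment over all genes tested) in R 4.3.3. Microglia (15566 genes) and macrophages (13606 genes) were fitted separately for cytokine comparisons, as in the study, and together (16535 genes) for cell types and interactions. Alternatives were DESeq2 1.42.0 (the study's tool), its size factors in edgeR, 2 other filters on low counts, other sets of libraries, a block for the mouse and the omission of each library. The scripts were tested on simulated counts. At a true log2 change of 2 in either direction, rIL-4 against PBS recovered 43.0% of changed genes in microglia and 74.5% in macrophages. At a change of 3 it recovered 64.0% and 88.8%.

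The members, gene lists and tests were chosen with earlier results of these data known. Named genes are the members, the genes most correlated with them, up to 4 genes of a list by adjusted p and the first 6 of a marker list. Vcan, Fn1, Rnase1, Ear14, Gata1 and Cebpe were named after their values were seen. The labels give both cell types of a number to the same mouse, and their deviations from the group means correlated over genes at 0.0139 to 0.0848 in the 9 mice. The p-values measure the spread among mice within groups of 3, estimated over all 9 or 18 libraries of a fit and not only the groups compared. The main fit of both cell types treats the libraries of the same mouse as independent. Gene models and shared runs came from GENCODE vM21, promoters from RefSeq (GRCm38.p6), and alignments from Biopython 1.88.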

Additional observations from a re-analysis of the deposited data

Results flagged for a closer look

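The response of Rnase2a to rIL-4 differed between the cell types by a direct test. It was 2.94 log2 units smaller in microglia than in macrophages (interaction -2.94, SE 0.65, edgeR adjusted p = 0.0415). The PBS level it starts from was 10, 43 and 19 counts in microglia and 5, 8 and 6 counts in macrophages, and the rIL-4 level was 3097 to 4081 and 7466 to 8997 counts. With the mouse as a block the value was -2.85 (edgeR adjusted p = 0.00499). The call was kept in 10 of 22 alternative fits, with edgeR or DESeq2 adjusted p from 0.000576 to 0.146, and leaving out 1 library at a time gave -3.28 to -2.28. What part the low PBS counts have in this value was not tested. Groups of 3 libraries are too small for a search for single outlying samples.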

How the results depend on the processing

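Rnase2a with both cytokines in both cell types, and Ear2 with rIL-4 in both and with rIL-13 in macrophages, kept their direction and call under every alternative that tested the gene. Requiring at least 10 counts in every library removes Rnase2a or Ear2 from the genes tested, since PBS libraries fall below it. It left 1 member called with rIL-4 and 1 with rIL-13 in microglia and in macrophages, 0 for rIL-4 against rIL-13 in macrophages, 0, 1 and 1 between cell types with PBS, rIL-4 and rIL-13, and 0 for the cell type difference in the rIL-4 response. With only the 6 libraries compared, 1 member was called with rIL-13 in microglia, 0 for rIL-4 against rIL-13 in macrophages and 2 in place of 3 between cell types with rIL-13. Between cell types with PBS the number stayed 2, with Rnase6 in place of Rnase2a. DESeq2 called 2 members for rIL-4 against rIL-13 in each cell type and 1 for the cell type difference in the rIL-13 response. All 18 libraries in 1 model gave 2 for rIL-4 against rIL-13 in microglia. Without a filter on low counts the numbers were 2 for rIL-4 against rIL-13 in macrophages and 1 between cell types with PBS. The cause of these moves was not tested beyond the filter and the number of libraries. With the mouse as a replicate block the Rnase2a interaction was -2.85 and no call of a member changed, while the uncalled Rnase6 difference between cell types with rIL-4 turned to -0.13. The uncalled Rnase6 change with rIL-13 in macrophages was -0.0038 under the stricter filter and -0.0022 with 6 libraries.

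Leaving out 1 library at a time gave 2 to 2 members called with rIL-4 and 1 to 2 with rIL-13 in microglia, 2 to 2 with each in macrophages, 0 to 2 for rIL-4 against rIL-13 in macrophages, 1 to 2, 3 to 4 and 2 to 4 between cell types with PBS, rIL-4 and rIL-13, and 0 to 1 for the rIL-4 interaction. The added member in the counts of 4 was Rnase2b, lower in microglia, which had 0 counts in all microglia libraries and entered the tested genes only when a library was left out or no filter was used. It also took the place of Rnase2a between cell types with PBS without PBS macrophages of mouse 1, and with rIL-13 without rIL-13 macrophages of mouse 7. Signs turned only among uncalled values. Rnase6 ran from -1.16 to 1.06 for rIL-4 against rIL-13 in microglia, -0.38 to 0.22 with rIL-13 in macrophages, -0.81 to 0.99 and -1.05 to 0.37 between cell types with rIL-4 and rIL-13, and -0.70 to 1.51 for the interaction of rIL-4 against rIL-13. Rnase4 ran from -0.069 to 0.12 with rIL-4 in macrophages and -0.050 to 0.28 for that interaction. The interaction ran from -0.52 to 0.19 for Rnase2a (rIL-4 against rIL-13) and from -0.072 to 1.05 for Ear2 (rIL-13). Apart from Ear2 in PBS macrophages, Rnase2a and Ear2 had 1 to 43 counts in each PBS library, so those folds over PBS rest on few counts.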
